A study of Mus musculus with 6 samples.

Results

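The Hox cluster genes described here are 37 protein-coding genes of the *Hoxa*, *Hoxb*, *Hoxc* and *Hoxd* clusters, chosen by symbol among 22380 gene identifiers, of which 20775 had a symbol. They comprised 10 genes of the *Hoxa* cluster on chromosome 6, 10 of the *Hoxb* cluster on chromosome 11, 9 of the *Hoxc* cluster on chromosome 15 and 8 of the *Hoxd* cluster on chromosome 2, and *Hoxd4* was not analysed here. RNA was measured in mouse embryonic stem cells (mESC), 3 populations from separate embryos per genotype. Both genotypes carried 1 *CreERT2* allele, whose Cre recombinase enters the nucleus with tamoxifen, and 1 *Gt(ROSA)26Sor<tm1Ytchn>/J* allele, a reporter that makes H2B-EGFP once Cre has removed its stop cassette. *Ctrl* cells carried nothing further. *Tet iTKO* cells also carried floxed alleles of *Tet1*, *Tet2* and *Tet3*, the genes of the enzymes that oxidize 5-methylcytosine in DNA. All 6 populations received tamoxifen at 1 µM for 2.5 days, grew for 4 more days, and at day 6.5 were sorted as live, EGFP+, CD326+ and Thy1.2-. They grew in 2i medium on a layer of mouse embryonic fibroblasts, and *CreERT2* acts in any cell that carries it.

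Hox genes encode homeodomain transcription factors that give cells their position along the head-to-tail axis of the embryo. Within a cluster they stand in a row, numbered as paralog groups, and during gastrulation they are switched on roughly in that order, group 1 first. Retinoic acid, Wnt and Fgf signals and the Cdx factors start this sequence, and homeodomain proteins of the TALE class (Pbx, Meis, Pknox) bind DNA together with Hox proteins. In mESC the clusters are known to be kept silent by Polycomb complexes, and their CpG-rich DNA is largely free of methylation.

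The genes are similar in their homeobox, so the stretch that differs least is shown for *Hoxb9* and *Hoxb13*, which are among the genes that carry most of the signal below, and for *Hoxc13*, the leading gene of its cluster. The capitals mark the 18 bases that encode the core of the DNA recognition helix, and each stretch holds 60 coding bases from the GENCODE M21 transcripts.
Hoxb9: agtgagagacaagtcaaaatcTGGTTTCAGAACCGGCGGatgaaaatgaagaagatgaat
Hoxb13: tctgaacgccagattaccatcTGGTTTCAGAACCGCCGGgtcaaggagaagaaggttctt
Hoxc13: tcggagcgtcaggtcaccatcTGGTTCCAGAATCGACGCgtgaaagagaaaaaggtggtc

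*Hoxc13*, the paralog of *Hoxb13* on another chromosome, shared 45 of the 60 bases with it, whereas *Hoxb9*, from the same cluster, shared 40. Reads of 50 bases can still tell these genes apart, because no window of 50 bases in the exons of *Hoxb1*, *Hoxb13* or *Hoxc13*, and 1 of the 2574 windows of *Hoxb9*, occurred in another of the 37 Hox genes. *Hoxc5* and *Hoxc10* shared 119 windows, and both were at 0 in every library.

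Values are normalized counts, that is, reads per gene divided by a size factor of the library and rounded by the authors. They summed to between 3964824 and 4219665 per library, from an estimated 3.66 M to 5.1 M reads on genes. Genes above 0 numbered 13431 to 13539 in the *Ctrl* and 14024 to 14363 in the *Tet iTKO* libraries. Markers of mESC were present in both groups, with 10 genes that summed to 16854 to 17389 in *Ctrl* and 15798 to 16298 in *Tet iTKO* libraries. Of the 9 tested, 3 were called higher and 3 lower, beside 16.4% and 18.4% of all genes tested. *Pou5f1* (log2 fold change -0.29), *Nanog* (-0.3) and *Zfp42* (-0.35) were lower, and *Esrrb* (0.29), *Epcam* (0.45) and *Dppa3* (0.31) were higher. After a correction for GC content and length, *Nanog*, *Zfp42* and *Esrrb* were not called (limma adjusted p = 0.5, 0.64 and 0.71). *Pou5f1*, *Epcam* and *Dppa3* stayed called. *Tfcp2l1* was called lower (-0.46, limma adjusted p = 2.1e-05) and *Tdgf1* higher (0.24, 1.3e-05) with the correction and not without it. *Tet3* fell by 1.67 on the log2 scale (SE 0.63, limma adjusted p = 0.035), while *Tet1* was higher by 0.21 (SE 0.08, adjusted p = 0.026) and *Tet2* was not called. These are values of whole genes, in which the floxed exons cannot be set apart, so they do not check the deletion of *Tet1* and *Tet2*.

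Hox genes were near silent in *Ctrl* mESC, and a few of them stood higher in *Tet iTKO* mESC. The sum over the 37 genes came to 29, 14 and 52 normalized counts for *Ctrl* replicates 1 to 3 and to 71, 100 and 82 for *Tet iTKO* replicates 1 to 3, the order kept in all values that follow. The groups did not overlap, and the mean was 2.66-fold higher, at 84.3 ± 14.6 against 31.7 ± 19.1 (SD, n = 3 each). Hox genes, *Hoxb13* included, made up 17.9 to 25.2 per 1 M normalized counts in *Tet iTKO* and 3.32 to 12.3 per 1 M in *Ctrl* libraries. Without *Hoxb13* the sums were 17, 12 and 42 against 33, 71 and 46, which overlapped. In bulk RNA, a few cells with much Hox RNA and many cells with little cannot be told apart.

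Of the 37 genes, 25 were above 0 in at least 1 library and 12 were at 0 in all 6, namely *Hoxa6*, *Hoxa9*, *Hoxa13*, *Hoxb3*, *Hoxb8*, *Hoxc5*, *Hoxc8*, *Hoxc10*, *Hoxc11*, *Hoxd3*, *Hoxd8* and *Hoxd10*. A normalized count of up to 3 was taken as the floor of 1 library, and 13 of the 25 stayed at or under it everywhere. *Hoxb1* and *Hoxb13* exceeded it in each *Tet iTKO* library, and no Hox gene did so in each *Ctrl* library. The number of Hox genes above 0 was 11, 8 and 11 in the *Ctrl* libraries and 15, 19 and 15 in the *Tet iTKO* libraries. Estimated reads were 4.03 M, 4.02 M and 3.85 M in *Ctrl* and 3.66 M, 5.1 M and 4.28 M in *Tet iTKO* libraries. *Tet iTKO* replicate 2, with 19 such genes, thus had the most reads and replicate 1, with 15, the fewest. Genes above 0 over the whole series were also more numerous in each *Tet iTKO* library, and the part of depth was not tested.

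**Figure D1:**
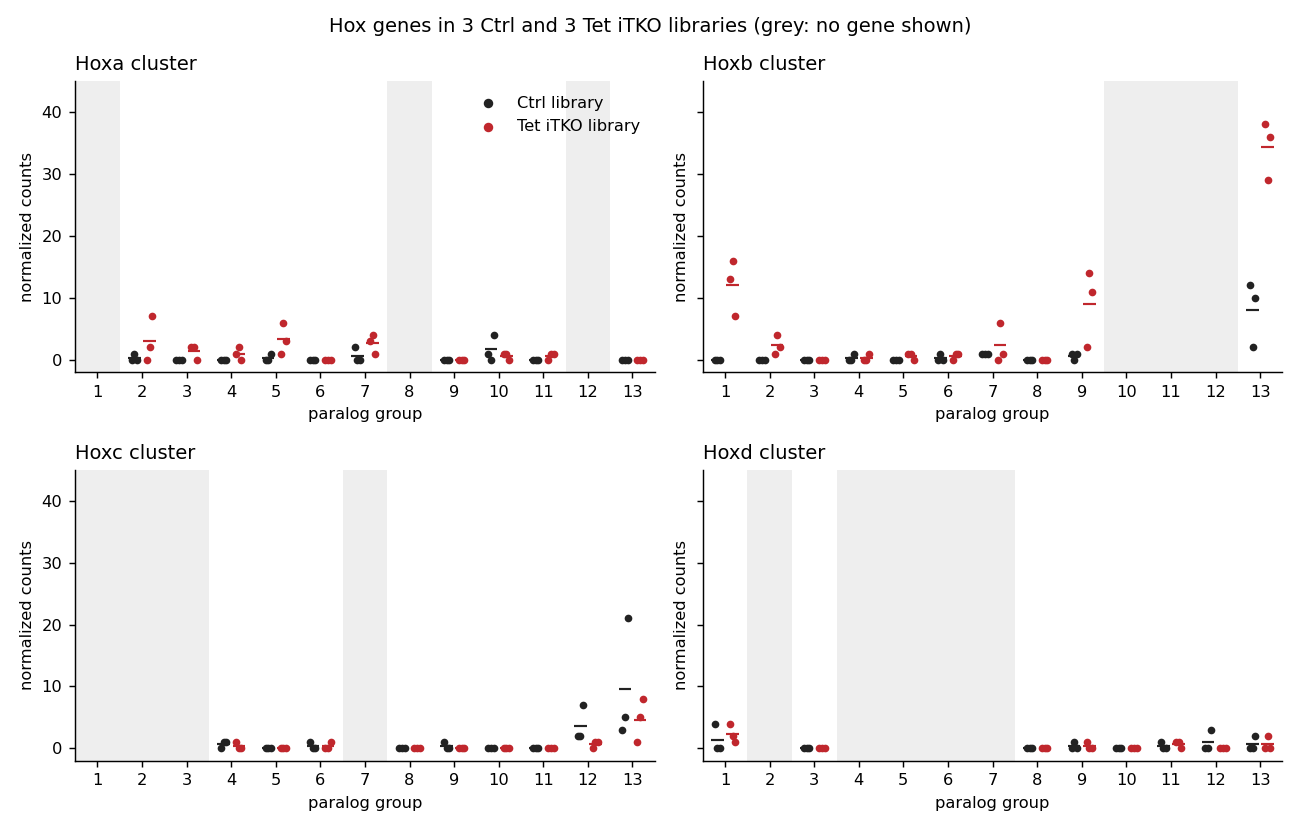
Normalized counts (y axis) of each Hox gene by paralog group (x axis) in the 4 clusters, with 1 point per library, black for *Ctrl* and red for *Tet iTKO*, and a short bar at the mean of 3 libraries. *Hoxb1*, *Hoxb9* and *Hoxb13* stand out in red, *Hoxc12* and *Hoxc13* in black, and most other genes lie at or near 0.

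*Hoxb13*, at the posterior end of the *Hoxb* cluster and known for its late expression in the tail bud and later in the prostate, was the Hox gene with the highest mean over the 6 libraries. The *Ctrl* libraries had 12, 2 and 10 and the *Tet iTKO* libraries 38, 29 and 36 normalized counts of it. Each *Tet iTKO* library lay above each *Ctrl* library, although *Hoxb13* was already above the floor in *Ctrl* replicates 1 and 3. The mean rose 4.29-fold, from 8.0 ± 5.29 to 34.3 ± 4.73 (SD, n = 3 each), a log2 fold change of 2.22 (SE 0.51, limma adjusted p = 0.00081) on the scale of log2(normalized count + 1). This is a difference of mean log values and need not equal the log2 of the fold between means. Without *Ctrl* replicate 2 it was 1.55 (adjusted p = 0.0064).

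*Hoxb13* was the 1 gene of the 37 with a mean of at least 10, the level required for the test, and it passed that level through its *Tet iTKO* values, since its *Ctrl* mean was below 10. It was called higher, so the test called 1 Hox gene higher and 0 lower. Over all 10524 genes tested, 16.4% were called higher and 18.4% lower. Among the 1717 tested genes with a mean below 30, where *Hoxb13* lies, 16.6% were called higher and 3.44% lower, so at this level calls upwards were the more common kind for genes in general.

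**Figure D2:**
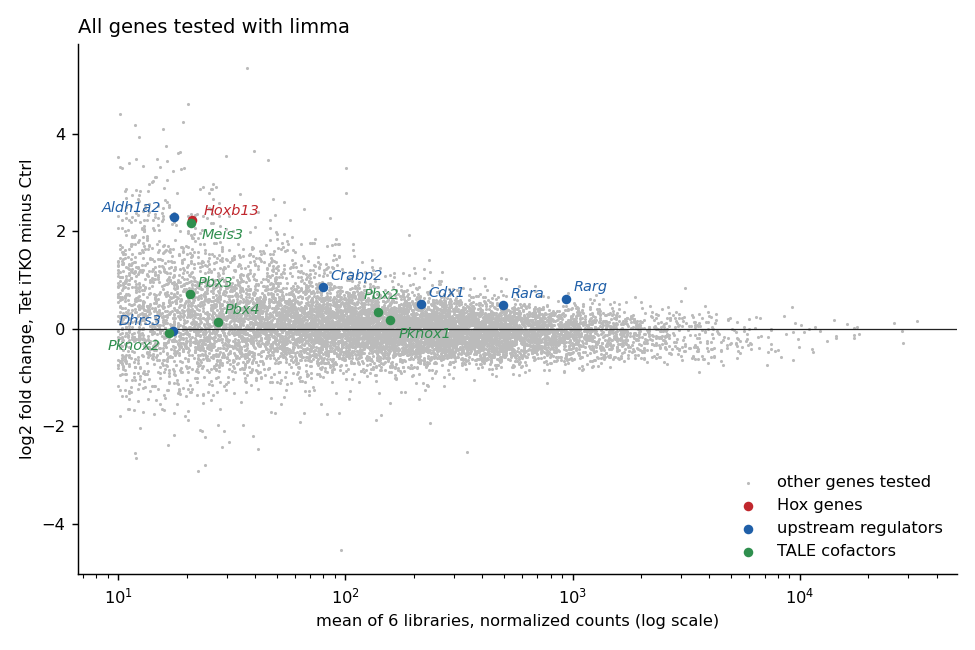
Log2 fold change of *Tet iTKO* over *Ctrl* (y axis) against the mean normalized count of 6 libraries (x axis, log scale) for the genes tested, with *Hoxb13* in red, upstream regulators in blue and TALE cofactors in green. *Hoxb13* at 2.22 lies at the low end of expression, where the grey points also spread more upwards than downwards.

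*Hoxb1*, which marks rhombomere 4 of the hindbrain and keeps itself active there together with Pbx proteins, was at 0 in all 3 *Ctrl* libraries and at 13, 16 and 7 in the *Tet iTKO* libraries. The mean of 12 ± 4.58 (SD, n = 3) was at least 4-fold higher, against a floor of 3 counts per library. *Hoxb9*, a gene of the thoracic region, stood at 1, 0 and 1 in *Ctrl* and at 2, 14 and 11 in *Tet iTKO* libraries. Its summed counts had a ratio of 13.5 (95% exact binomial interval 3.39 to 117, which covers counting error only), and *Tet iTKO* replicate 1 was close to the *Ctrl* libraries. *Hoxb2*, a hindbrain gene, was at 0 in each *Ctrl* library and at 1, 4 and 2 in the *Tet iTKO* libraries, too low for a fold. When the filter was dropped and all 16064 genes above 0 were tested, *Hoxb1* (limma adjusted p = 0.0009), *Hoxb2* (0.032) and *Hoxb9* (0.034) were called besides *Hoxb13*. In that test 9.85% of all genes were called higher and 10.1% lower. These shares cover genes of every level, not only genes as low as these. Exons of *Hoxb2* overlap those of *Hoxb3os* on the other strand, and 904 of its 3485 windows (25.9%) occurred in 1 other gene. Reads of an antisense gene cannot be told apart here, so the call of *Hoxb2* need not reflect *Hoxb2* RNA.

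Levels of different genes were compared per kb of exon. In *Tet iTKO* libraries *Hoxb13* had a mean of 15.6 normalized counts per kb, followed by *Hoxb1* at 5.17 and *Hoxb9* at 3.5. *Hoxb1* and *Hoxb9* did not differ beyond the spread of *Hoxb9* between libraries. In *Ctrl* libraries *Hoxc13* at 3.93, *Hoxb13* at 3.63 and *Hoxc12* at 3.56 had the highest means. These 3 did not differ beyond their spread between libraries, and that of *Hoxc13* rests on *Ctrl* replicate 3.

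The other 24 genes above 0 had a mean below 10 and did not enter the test. For them the *Tet iTKO* mean was higher for 14, lower for 6 and equal for 4. That is 58.3% higher, beside 60.8% of the 5540 genes of the series in the same range, so the share of Hox genes that were higher was near that of low genes in general. Groups did not overlap in the higher direction for 3 of the 24 (*Hoxb1*, *Hoxb2* and *Hoxb9*, 12.5%, beside 9.87% of the 5540 genes) and in the lower direction for 1 (*Hoxc12*, 4.17%, beside 1.9%). Over the 25 Hox genes above 0, 4 were separate in the higher and 1 in the lower direction, where 17.3% and 15.7% of 16064 genes were.

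The 2 posterior genes *Hoxc12* and *Hoxc13* were lower in mean, and they are named here after their values were seen. *Hoxc13*, known for its role in hair and nails, was at 3, 5 and 21 in *Ctrl* and at 1, 5 and 8 in *Tet iTKO* libraries. The groups overlapped, and the high *Ctrl* mean of 9.67 ± 9.87 (SD, n = 3) rests on replicate 3. *Hoxc12*, its neighbour, was at 2, 2 and 7 in *Ctrl* and at 0, 1 and 1 in *Tet iTKO* libraries, which did not overlap, and it was not called in the test without a filter (limma adjusted p = 0.12). Of the others over the floor in any library, *Hoxa2*, *Hoxa5*, *Hoxa7* and *Hoxb7* reached at most 7 in *Tet iTKO* and 2 in *Ctrl*, and their groups overlapped. *Hoxa10* reached 4 in 1 *Ctrl* library, and *Hoxd1* reached 4 in 1 library of each group. *Hoxa3*, *Hoxa4*, *Hoxa11* and *Hoxb5* were at 0 in *Ctrl* and at 2 or less in *Tet iTKO* libraries, and *Hoxc9* and *Hoxd12* were at 0 in *Tet iTKO* and at 3 or less in *Ctrl* libraries. *Hoxb4*, *Hoxb6*, *Hoxc4*, *Hoxc6*, *Hoxd9*, *Hoxd11* and *Hoxd13* were seen in both groups, at 2 or less.

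Summed by cluster, the *Hoxa* and *Hoxb* genes were higher in *Tet iTKO* mESC and the *Hoxc* and *Hoxd* genes overlapped between groups. No test was made on these sums, whose members were chosen together. The *Hoxa* cluster summed to 3, 1 and 5 in *Ctrl* and to 8, 18 and 12 in *Tet iTKO* libraries, a 4.22-fold higher mean. The *Hoxb* cluster summed to 14, 4 and 13 in *Ctrl* and to 55, 71 and 59 in *Tet iTKO* libraries, 5.97-fold higher. Each *Tet iTKO* library exceeded each *Ctrl* library in both clusters. They remained separate without their leading genes, with sums of 1 to 4 in *Ctrl* and 7 to 12 in *Tet iTKO* for *Hoxa* without *Hoxa5*, and of 2 to 3 and 17 to 42 for *Hoxb* without *Hoxb13*. The *Hoxc* cluster summed to 7, 8 and 29 in *Ctrl* and to 2, 6 and 10 in *Tet iTKO* libraries, with a log2 ratio of means of -1.29, or -0.32 without *Ctrl* replicate 3. Without *Hoxc13* its sums were 4, 3 and 8 against 1, 1 and 2, which did not overlap. The *Hoxd* cluster stayed at 1 to 5 in *Ctrl* and 1 to 6 in *Tet iTKO* libraries. Of the *Hoxa* genes above 0, 6 of 7 had a higher mean in *Tet iTKO*, as did 7 of 8 *Hoxb*, none of 5 *Hoxc* and 2 of 5 *Hoxd* genes.

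**Figure D3:**
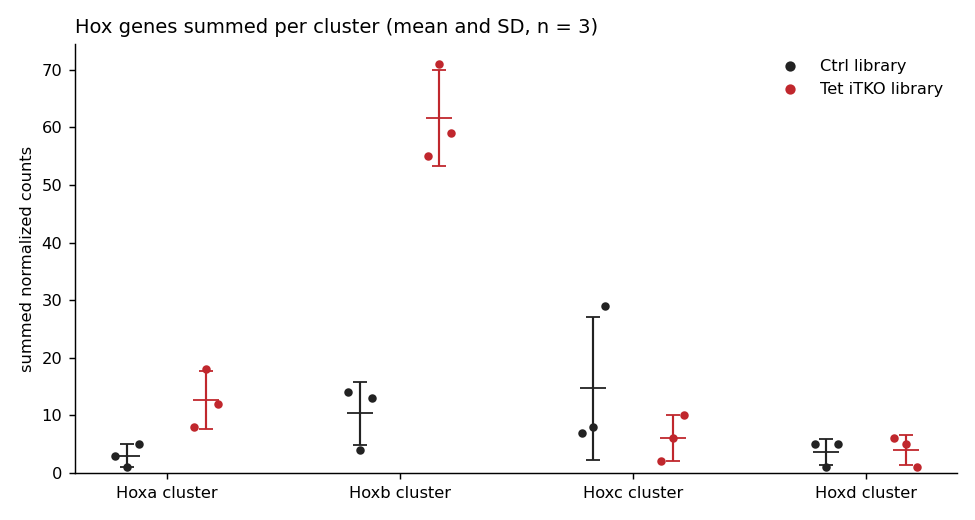
Summed normalized counts (y axis, from 0) of the Hox genes of each cluster (x axis), with 1 point per library, black for *Ctrl* and red for *Tet iTKO*, and bars at the mean ± SD of 3 libraries. The *Hoxa* and *Hoxb* sums of the 2 groups are separate, while the *Hoxc* and *Hoxd* sums overlap.

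The genes were also summed by their place along the clusters. Genes of paralog groups 1 to 3, the anterior genes, summed to 4, 1 and 0 in *Ctrl* and to 20, 26 and 17 in *Tet iTKO* libraries. All 5 of them that were above 0 had a higher mean in *Tet iTKO*, and the log2 ratio of 3.66 became 5.39 without *Ctrl* replicate 1 and 2.43 without *Hoxb1*. The *Ctrl* mean of these sums was 1.67, under the floor of 3 counts set for 1 gene, so the size of these ratios is poorly determined. Genes of groups 4 to 8 summed to 4, 3 and 4 in *Ctrl* and to 7, 20 and 8 in *Tet iTKO* libraries, and the log2 ratio of 1.67 became 1.03 without *Tet iTKO* replicate 2. Posterior genes of groups 9 to 13 summed to 21, 10 and 48 in *Ctrl* and to 44, 54 and 57 in *Tet iTKO* libraries. These overlapped, with a log2 ratio of 0.97, or 1.74 without *Ctrl* replicate 3, and of -0.08 once *Hoxb13* was left out. Whether the 3 places differed from each other was not tested.

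Other genes of the same stretches of DNA were also measured. Inside the clusters, 3 annotated genes besides the Hox genes had values, of which *Gm53*, a long noncoding RNA gene between *Hoxb9* and *Hoxb13*, was at 24, 34 and 43 in *Ctrl* and at 40, 36 and 35 in *Tet iTKO* libraries. These overlapped (log2 fold change 0.17, SE 0.32, limma adjusted p = 0.72). The 3 nearest protein-coding genes on each side of the clusters came to 23 genes, of which 20 were tested, 1 was called higher and 6 were called lower, beside 16.4% and 18.4% of all genes tested. *Skap2*, an adaptor protein gene beside the *Hoxa* cluster, fell by 0.65 on the log2 scale (SE 0.1, from 459 ± 59.5 to 291 ± 28.4, SD, n = 3 each, limma adjusted p = 4.9e-06). *Hnrnpa3*, an RNA-binding protein gene beside the *Hoxd* cluster, was the one called higher, by 0.43. *Evx1*, a homeobox gene beside *Hoxa13*, was at 3 or less in every library, and *Evx2*, beside *Hoxd13*, was at 0.

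RefSeq promoters (GRCm38.p6, 250 bases before to 50 after a start) were at hand for 21 of the 37 Hox genes, and among the genes described in full only for *Hoxb1*. It is shown because *Hoxb1* is known to be driven by Hox and Pbx proteins bound side by side. The capitals mark the single match to TGATNNAT, the pair's binding motif, searched on both strands. It covers chr11:96365508-96365807 on the + strand.
Hoxb1: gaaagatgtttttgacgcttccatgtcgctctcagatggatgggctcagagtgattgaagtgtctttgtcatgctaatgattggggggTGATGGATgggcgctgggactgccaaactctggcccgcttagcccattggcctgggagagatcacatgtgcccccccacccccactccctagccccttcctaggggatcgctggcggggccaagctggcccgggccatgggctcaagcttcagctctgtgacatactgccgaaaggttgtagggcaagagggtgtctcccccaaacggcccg

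The match begins 162 bases before the start. TGATNNAT occurred in 8.85% of 32851 promoters of this length and in 4 of the 23 Hox promoters (*Hoxa2*, *Hoxb1*, *Hoxb8* and one of *Hoxd11*). Each is a match of letters, and binding was not measured in these data. Hox promoters held a median of 15 CpG dinucleotides (4 to 45), against 7 for all promoters. *Hoxb1*, with 10, had fewer than the Hox median and more than the median of all promoters. *Hoxa13*, with 45, the most CpG, was at 0 in every library, and so was *Hoxa9*, with 4. *Hoxa5* and *Hoxd1*, with 29 each, and *Hoxd11*, with 4 in one of its promoters, were above 0 in some libraries. A relation between CpG number and level was not tested.

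Among the TALE cofactors of Hox proteins, *Meis3* was the one called higher of the 6 tested, beside 16.4% of all genes tested. It stood at 9, 2 and 14 in *Ctrl* and at 35, 33 and 32 in *Tet iTKO* libraries, which did not overlap. The log2 fold change was 2.16 (SE 0.52, limma adjusted p = 0.0011), or 1.49 without *Ctrl* replicate 2, and like *Hoxb13* it reached the mean of 10 through its *Tet iTKO* values. The 6 tested, of 9 cofactor genes, had a median log2 fold change of 0.26 beside 0.01 over all genes tested. *Pknox1*, *Pbx2*, *Pbx3*, *Pbx4* and *Pknox2* were not called, and *Pbx2* and *Pbx3* had groups that did not overlap, at 107 to 137 against 149 to 160 and at 12 to 20 against 25 to 27. *Meis2*, too low to be tested, also had separate groups, at 2, 1 and 3 against 10, 5 and 7.

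Of 14 upstream regulators of Hox genes, 6 were tested and 5 were called higher, beside 16.4% of all genes tested, and the median log2 fold change of the 6 was 0.56. *Aldh1a2*, the enzyme that makes retinoic acid in the early embryo, had the largest, at 5, 4 and 7 in *Ctrl* and at 32, 34 and 23 in *Tet iTKO* libraries (log2 fold change 2.28, SE 0.51, limma adjusted p = 0.00059), and its *Ctrl* mean too was below 10. *Crabp2*, which carries retinoic acid to its receptors in the nucleus, stood at 50, 51 and 70 and at 114, 87 and 107 (0.85, SE 0.22, adjusted p = 0.0021). *Rarg*, a retinoic acid receptor, stood at 714, 772 and 740 and at 1165, 1105 and 1138 (0.61, SE 0.07, adjusted p = 3.9e-09). All 3 also passed the test after a correction for GC content and length, but their size moved. The corrected log2 fold changes were 2.38 for *Aldh1a2*, 1.29 for *Crabp2* and 0.3 for *Rarg*. *Rara*, another receptor, and *Cdx1*, a caudal-type homeobox gene, were called at log2 fold changes of 0.48 and 0.50, but not after that correction (adjusted p = 0.48 and 0.058). *Dhrs3*, an enzyme that turns retinal back into retinol, was tested and not called, while *Cyp26a1*, the enzyme that breaks retinoic acid down and a sensitive target of it, was at 1 or less in each library. *Rarb*, a further target of retinoic acid, stood at 2, 16 and 0 in *Ctrl* and at 2, 3 and 1 in *Tet iTKO* libraries. *Cdx2* was at 0 in *Ctrl* and at 1, 5 and 2 in *Tet iTKO* libraries.

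**Figure D4:**
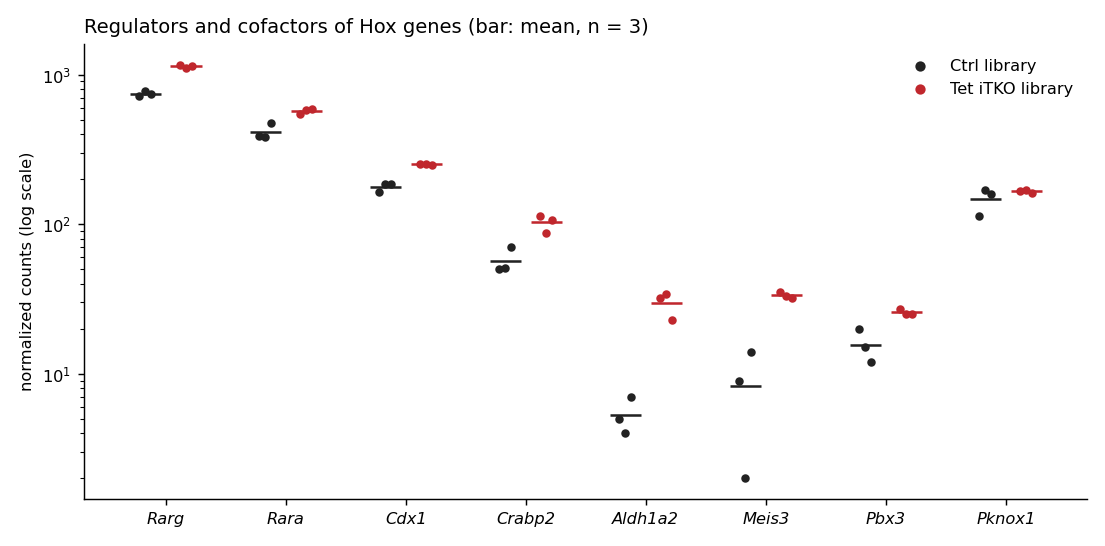
Normalized counts (y axis, log scale) of 5 upstream regulators and 3 TALE cofactors of Hox genes (x axis), with 1 point per library, black for *Ctrl* and red for *Tet iTKO*, and a bar at the mean of 3 libraries. The groups overlap for *Pknox1* and not for the other 7 genes, and *Aldh1a2* and *Meis3* show the widest gaps.

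Homeobox genes of the same class outside the clusters (ANTP class) were compared as genes like the Hox genes. This list leaves out the related genes *Cdx1*, *Cdx2*, *Evx1* and *Evx2*, which are given above. Of 51, 37 were above 0, 29 had a mean of at most 1 in both groups and 5 were tested. *Hhex* and *Nkx6-3* were called higher and *Nkx6-2* lower, beside 16.4% and 18.4% of all genes tested. These calls were not stable, since *Hhex* was lost without *Ctrl* replicate 1 or *Tet iTKO* replicate 1 or 2, *Nkx6-3* without *Ctrl* replicate 2 or *Tet iTKO* replicate 2 or 3, and *Nkx6-2* without *Ctrl* replicate 2 or 3 or *Tet iTKO* replicate 2 or 3. Groups of the ANTP-class genes did not overlap in the higher direction for 5 of 37 and in the lower for 1, against 4 and 1 of 25 for the Hox genes. Over all genes above 0, 17.3% were separate in the higher and 15.7% in the lower direction.

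Markers of cells other than mESC were measured beside these results. Of 10 genes of the primitive streak and tail bud, where Hox expression starts in the embryo, 3 were tested and 2 were called higher. Among all tested genes with a mean below 30, where these lie, 16.6% were called higher. *T* (brachyury) was at 0, 12 and 1 in *Ctrl* and at 24, 26 and 24 in *Tet iTKO* libraries (log2 fold change 3.11, SE 0.73, limma adjusted p = 0.00097), and *Wnt3a* at 2, 8 and 5 and at 15, 33 and 14 (1.88, SE 0.61, adjusted p = 0.015). *T* was at 2.33 without *Ctrl* replicate 1 and at 4.18 without replicate 2, and *Wnt3a* at 1.45 (adjusted p = 0.053) without *Ctrl* replicate 1. Both reached the mean of 10 through their *Tet iTKO* values, and *Wnt3a* was below it without *Tet iTKO* replicate 2. *Nkx1-2* was tested and not called, at 15, 10 and 10 in *Ctrl* and at 11, 19 and 23 in *Tet iTKO* libraries (limma adjusted p = 0.45). *Fgf8* was at 0 in each *Ctrl* library and at 13, 10 and 7 in *Tet iTKO* libraries, whereas *Mesp1*, *Msgn1* and *Foxb1* were at 0 in all. *Mixl1* also had separate groups, at 3, 3 and 1 against 8, 8 and 12. The groups of *Tbx6* (6, 0 and 0 against 3, 2 and 0) and *Evx1* (1, 1 and 1 against 0, 3 and 2) overlapped. The 10 genes summed to 18 to 34 in *Ctrl* and to 74 to 101 in *Tet iTKO* libraries. Of 6 primitive endoderm markers *Gata4* was tested and called higher, at 2, 7 and 10 in *Ctrl* and at 21, 12 and 27 in *Tet iTKO* libraries (log2 fold change 1.64, SE 0.6, limma adjusted p = 0.03). It too reached the mean of 10 through *Tet iTKO*, and the call was lost with the GC and length correction (adjusted p = 0.09) and without a filter (0.084). The sums of these markers were 5 to 18 and 21 to 36, with *Sox17* and *Foxa2* at 4 or less and *Gata6* at 2, 0 and 5 against 1, 1 and 1.

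The summed markers of the feeder fibroblasts were higher in *Tet iTKO* libraries too, while single genes went both ways. The 15 genes summed to 283 to 308 in *Ctrl* and to 497 to 567 in *Tet iTKO* libraries. Of the 4 tested, *Col1a1*, *Col1a2* and *Col3a1* were called higher, beside 16.4% of all genes tested, while *Thy1* was not (30, 46 and 41 against 47, 35 and 23). *Tcf21* was at 0 in all libraries, and *Lum*, *Postn* and *Prrx1* were at 8 or less. *Dcn* (2, 3 and 15 against 1, 2 and 6), *Lum*, *Pdgfrb*, *Prrx1* and *Thy1* had lower means in *Tet iTKO*. *Col6a3*, *Pdgfra*, *Postn* and *Twist1* had higher means with groups that overlapped. Groups did not overlap in the higher direction for 5 of the 15, beside 17.3% of all genes above 0. These were the 3 collagen genes, *Fbn1* (2, 1 and 2 against 15, 10 and 6) and *Tbx5* (0 in each *Ctrl* library against 6, 2 and 2). Sorting had removed Thy1.2+ cells. The part of streak-like cells, endoderm-like cells or feeder cells in the Hox values was not tested.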

How the data were processed

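Libraries of sorted mESC were made with Smart-Seq2 and sequenced as paired reads of 50 bases. Per the labels, the authors aligned them to mm9 with STAR and used HTSeq 0.7.1, R 3.5.2 and DESeq2 1.26.0. Per the paper's methods, unique alignments were counted per gene with a stranded setting, although Smart-Seq2 keeps no strand, so reads of an antisense gene over a Hox exon cannot be told apart. The deposited values are of the unit score, since they are counts divided by the authors' size factor and rounded to whole numbers, and not read counts. The count tests of DESeq2 and edgeR were therefore not run.

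Identifiers were given symbols, exon lengths and GC content from GENCODE M21 (GRCm38), which is not the authors' build. The only coordinates given are therefore those of the printed *Hoxb1* promoter, in GRCm38.p6. All genes with a mean of at least 10 normalized counts entered a linear model in limma 3.58.1 (R 4.3.3) on log2(normalized count + 1), with a variance trend and Benjamini-Hochberg adjustment over 10524 genes, called at an adjusted p under 0.05. On simulated data, 200 of 200 genes given a log2 fold change of 2, up or down, were called, as were 6 unchanged genes of 10525 tested. The changed genes had higher means than the Hox genes reported here other than *Hoxb13*, and the simulated spread between libraries was set low. The simulation therefore does not show how often genes as low or as variable as the Hox genes would be called. Read depth was estimated from the whole numbers that rounding skips, which recovered 20 of 20 simulated size factors within 1%. Intervals and floors cover counting error only, because amplified reads that carry no molecular identifier do not each stand for a molecule.

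Hox genes with a mean of at least 10, or with groups that did not overlap and a group mean of at least 5, were given in every library. List genes were named when called, up to 6 a list by mean level, and others were named after their values were seen. Of the Hox genes, 1 is not reported here, and the counts, sums and figures of Hox genes leave it out. The members and lists were chosen with earlier results of these data known. Figures and tables used Python 3.11.15 with pandas 2.3.3 and matplotlib 3.10.9. Alternatives changed the pseudocount, filter, scaling, variance model, replicate block, GC and length correction, and left out each library in turn.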

Additional observations from a re-analysis of the deposited data

How the results depend on the processing

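*Hoxb13* was called higher under each alternative that tested it, with log2 fold changes of 1.55 to 2.61 and limma adjusted p of 0.00028 to 0.042 over 15 alternatives. With a mean of at least 50 required, no Hox gene was left to test. Without a filter 4 Hox genes were called higher, since 24 of the 25 genes above 0 had a mean below 10 and entered there alone. Of these 4, the call of *Hoxb2* carries the limit on antisense reads given above. Replicate numbers did not pair the samples, since same-numbered libraries correlated at 0.001, -0.005 and -0.003 in their deviations from the group means, and a replicate block called 1 Hox gene higher and 0 lower, with 1762 genes higher and 1980 lower in all. Rescaling libraries to equal totals moved the calls over all genes from 1731 higher and 1934 lower to 2324 and 1428, and the median log2 fold change from 0.012 to 0.096. Without the variance trend they were 1075 and 1217.

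The TALE cofactors called higher, 1 in the reported test, were 0 with a mean of at least 50 and 2 with equal totals or without the trend. The upstream regulators called higher fell from 5 to 3 with the GC and length correction, also with the block. The other ANTP-class genes called higher, 2 in the reported test, were 4 without a filter and 1 with a mean of at least 50, quantile normalization, no trend, or the GC and length correction with or without the block. Those called lower, 1 in the reported test, were 0 without a filter, with a mean of at least 50, with equal totals or without the trend. Of the streak genes, 1 rather than 2 was called with quantile normalization or without the trend. Of the genes inside and beside the clusters, 3 rather than 1 were called higher with the GC and length correction, with or without the block, and 3 rather than 6 lower without the trend. The cause was not tested. Without its leading gene, the log2 ratio of the *Hoxb* sums was 3.55, without *Hoxb1* that of paralog groups 1 to 3 was 2.43, and without *Hoxb13* that of paralog groups 9 to 13 was -0.08. The ratios of 3.55 and 2.43 rest on *Ctrl* means of 2.33 and 1.67 and are poorly determined in size.

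Leaving out 1 library at a time gave 1 Hox gene higher and 0 lower each time, 0 to 2 other ANTP-class genes higher and 0 to 1 lower, 1 to 2 streak genes higher, and 4 to 7 lower genes inside and beside the clusters. The log2 ratios ran from 1.66 to 2.66 for the *Hoxa*, 2.19 to 2.86 for the *Hoxb*, -1.87 to -0.32 for the *Hoxc* and -0.32 to 0.58 for the *Hoxd* sums, and from 3.07 to 5.39, 1.03 to 1.93 and 0.58 to 1.74 for paralog groups 1 to 3, 4 to 8 and 9 to 13. *Atp5g3*, beside the *Hoxd* cluster and not called in the reported test, was called lower with a mean of at least 50, with the block or without *Tet iTKO* replicate 3, and higher with the GC and length correction. Of the 25 Hox genes above 0, 13 stayed at 3 normalized counts or less, and the part of depth in such low values was not tested.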
